A study of Danio rerio with 12 samples.

Results

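Heat shock genes encode chaperones, proteins that hold or refold other proteins. The 10 genes described here are hsp70.2, hsp70.3, hsp70l, hspa8, dnajb1b, hsp90aa1.1, hsp90aa1.2, hspb1, hspb11 and serpinh1b, found by symbol among the 31540 genes of the count tables. All 10 were present and all 10 passed the filter on low counts. The study measured messenger RNA in wild type zebrafish larvae at 5 days post fertilization, as pools of 10 whole larvae. Bisphenol A (BPA), an estrogenic monomer of plastics, was given in the water from day 2 to day 5 at 0.1, 1 or 4 mg/L. Control larvae received no BPA, and the solvent DMSO was at 0.2% in all 4 groups. Each group had 3 libraries, numbered 1 to 3 in the labels. No label says that the pools came from separate clutches or exposures, so the p-values measure the spread between these pools.

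When proteins unfold, the transcription factor Hsf1 turns on the inducible genes of this set. In zebrafish the inducible HSP70 genes, hsp70.1, hsp70.2, hsp70.3 and hsp70l, are low in unstressed larvae and rise steeply after heat, metals or other proteotoxic stress, and they serve as stress reporters. Hspa8 is the constitutive HSP70, Dnajb1b is a J protein that delivers clients to HSP70, and the HSP90 proteins finish the folding of kinases, receptors and, in muscle, myosin. Small heat shock proteins such as Hspb1 and Hspb11 bind unfolded clients without using ATP. One gene does not belong to the cytosol: serpinh1b encodes Hsp47, the collagen chaperone of the endoplasmic reticulum, and is described last. In the gene name table hspb11 carries the symbol hspb9l.

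Library totals ranged from 21952242 to 34219276 counts, and the counts of the 10 genes ranged from 26 for hsp70l to 193005 for hspa8. Levels are in CPM, the count of a gene relative to the total of its library, scaled by the trimmed mean of M-values (TMM), and since CPM is not corrected for transcript length, levels are compared across libraries and not between genes. Fold changes, standard errors (SE) and p-values come from edgeR's quasi-likelihood test on all 12 libraries, with Benjamini-Hochberg adjustment over the 22399 genes tested; a gene was called at an adjusted p below 0.05. In pools of whole larvae, fewer cells of a type and less RNA per cell cannot be told apart.

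None of the 10 heat shock genes passed the test at any BPA dose. Few genes of any kind did: 0%, 0.067% and 0.281% of all tested genes were called at 0.1, 1 and 4 mg/L. The inducible HSP70 genes were 6.59-fold to 11.5-fold higher in 1 of the 12 libraries, replicate 2 of BPA 0.1 mg/L, than in the highest of the other libraries, and the other 2 pools at that dose did not share this. The small heat shock gene hspb1 lay higher in all 9 exposed libraries than in all 3 controls by a small margin. Its tests of each dose against control did not pass, and the 9 exposed libraries were not tested together. Both hsp90aa1 genes were called lower in the libraries numbered 3 than in those numbered 1, in a comparison where 19% of all tested genes were called, and hsp90aa1.1 kept its call in 5 of 12 fits that each left out 1 library.

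**Figure D1:**
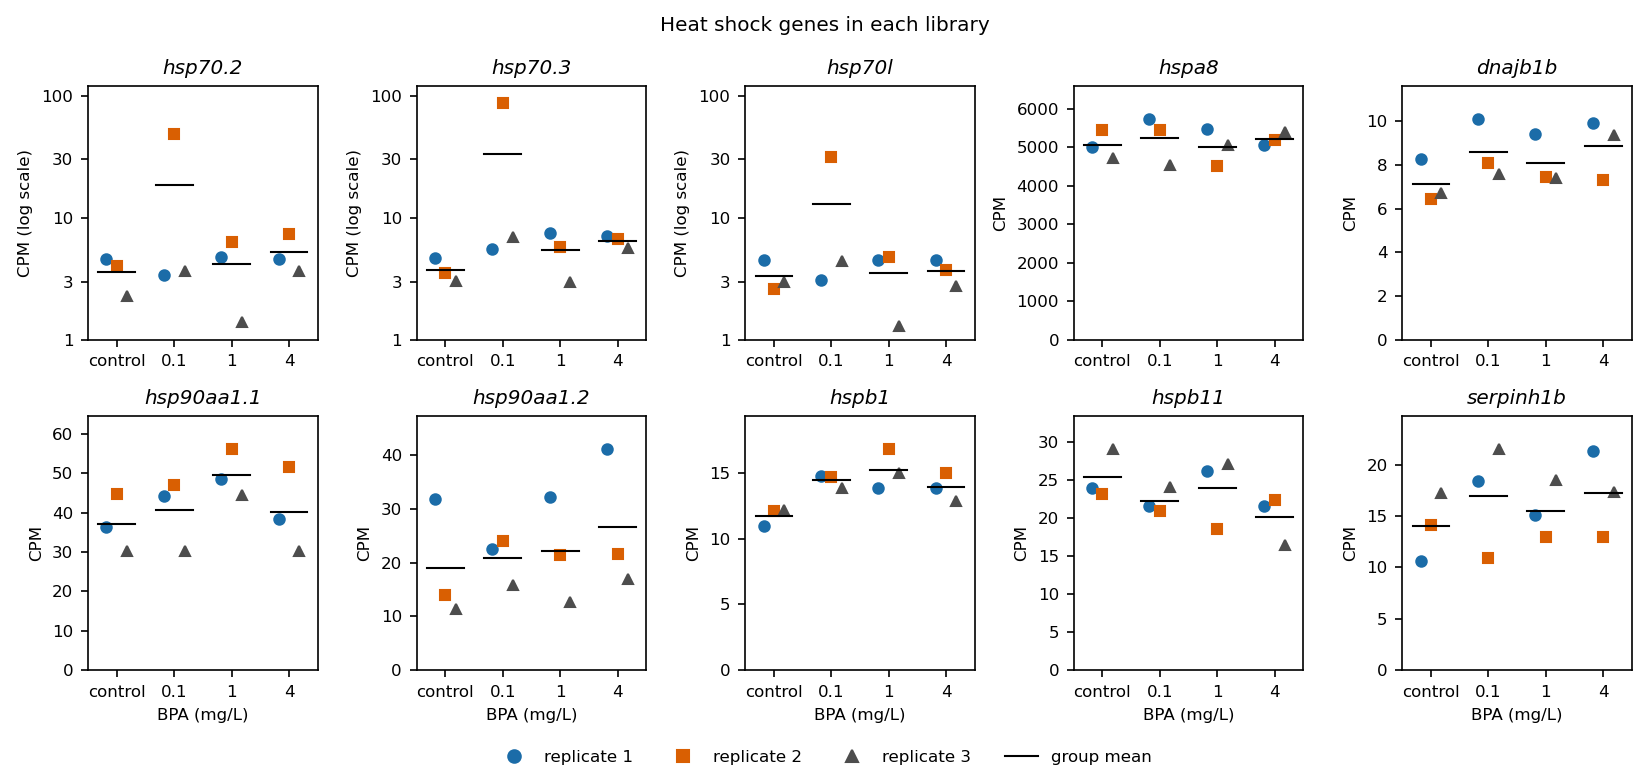
Level of each of the 10 genes in CPM (y axis, log scale for the 3 hsp70 genes and linear from 0 for the rest) by BPA concentration (x axis), with 1 point per library, its shape and colour giving the replicate number, and a line at the group mean. Replicate 2 of BPA 0.1 mg/L stands at 48.3, 86.4 and 31.3 CPM for hsp70.2, hsp70.3 and hsp70l and lies among the other libraries for the other 7 genes.

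The inducible HSP70 genes were taken first. In controls, hsp70.3 was at 4.67, 3.50 and 3.01 CPM in replicates 1, 2 and 3. At BPA 0.1 mg/L hsp70.3 was at 5.55, 86.4 and 6.94 CPM. At BPA 1 mg/L hsp70.3 was at 7.54, 5.78 and 3.00 CPM, and at BPA 4 mg/L at 7.03, 6.69 and 5.66 CPM. Replicate 2 of BPA 0.1 mg/L was 11.5-fold above the next library, and apart from it every value of hsp70.3 was at or below 7.54 CPM. The gene hsp70.2 was at 4.55, 3.99 and 2.30 CPM in controls, at 3.41, 48.3 and 3.64 CPM at 0.1 mg/L, at 4.76, 6.37 and 1.40 CPM at 1 mg/L and at 4.59, 7.30 and 3.68 CPM at 4 mg/L. For hsp70l the levels were 4.52, 2.60 and 2.96 CPM in controls, 3.08, 31.3 and 4.45 CPM at 0.1 mg/L, 4.53, 4.75 and 1.30 CPM at 1 mg/L and 4.54, 3.70 and 2.78 CPM at 4 mg/L. The same pool was the high one for both genes, 6.61-fold and 6.59-fold above the next library, while its partners at 0.1 mg/L lay within the range of the libraries at the other doses and in controls. Replicate 3 of BPA 1 mg/L had the lowest level of hsp70.2 and hsp70l. For hsp70.3 it was all but level with control replicate 3, at 3.00 against 3.01 CPM. The remaining inducible gene, hsp70.1, was at 15.6 CPM in the high pool and between 0.5 and 2.04 CPM in the other 11 libraries.

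The levels in the high pool rest on many reads. There hsp70.1, hsp70.2, hsp70.3 and hsp70l had 522, 1613, 2886 and 1047 counts. Together the 4 genes had 6068 counts there, against 124 to 666 in each other library and 4862 in the other 11 combined. Counts in the other libraries were lower, down to 10 for hsp70.1 and 26 for hsp70l in replicate 3 of BPA 1 mg/L. The proportions of the 4 genes in that pool lay within the range of the other libraries except for hsp70l. The share of hsp70.3 was 47.6% of the 4-gene total in the high pool, against a median of 39.5% and a range of 30.8% to 48.4% over the other libraries. The share of hsp70.2 was 26.6% against a median of 26.0%, and that of hsp70.1 was 8.60% against a median of 9.13%. The share of hsp70l was 17.3%, below the range of 19.6% to 33.5% in the other libraries. In the RefSeq table of assembly GRCz12tu, hsp70.1, hsp70.2 and hsp70.3 are consecutive genes and hsp70l lies on another chromosome. The HSP70 genes are close copies of each other, so the split of counts between them is uncertain, whereas their sum is less so.

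**Figure D2:**
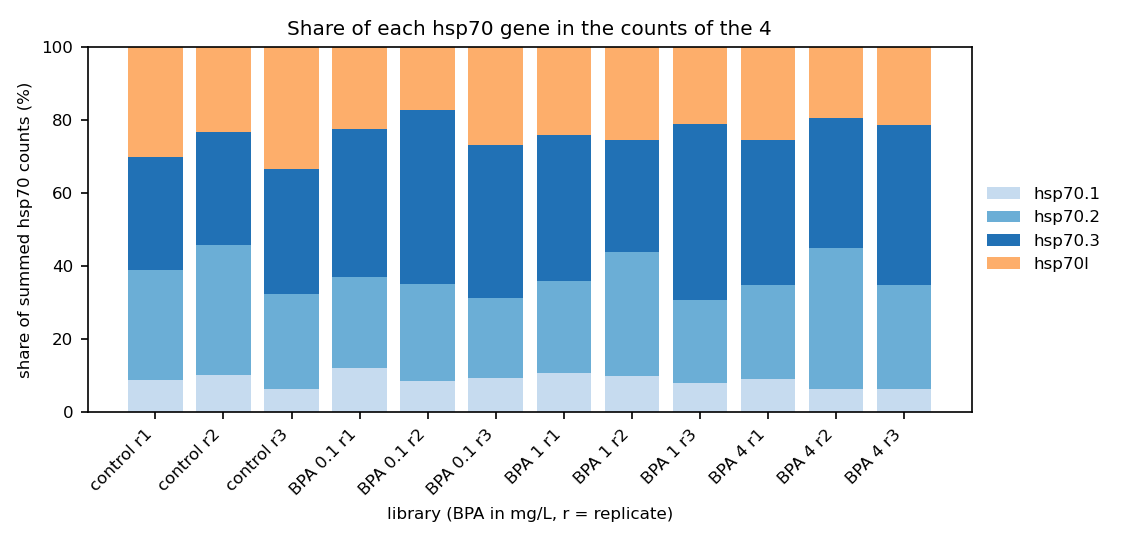
Share of hsp70.1, hsp70.2, hsp70.3 and hsp70l in the summed counts of the 4 genes (y axis, percent) in each of the 12 libraries (x axis). The shares in replicate 2 of BPA 0.1 mg/L, which holds 6068 of these counts, stay within the range of the other libraries except for hsp70l, whose 17.3% is the lowest.

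The rest of the transcriptome of that pool was compared with the other libraries gene by gene, as log2 CPM with a prior count of 2. Of the 22399 genes tested, 4 genes, 0.0179%, stood at least 4-fold above all 11 other libraries in replicate 2 of BPA 0.1 mg/L, and these 4 were hsp70.1, hsp70.2, hsp70.3 and hsp70l. The other libraries each had 0 such genes except replicate 3 of BPA 4 mg/L, which had 1. With CPM from library totals and no filter on low counts the same 4 genes stood out, with gaps of 5.96-fold to 10.6-fold. Next in order of gap came si:ch73-226l13.2, for which RefSeq lists the synonym il-1FMB. It had 69 counts in that pool against 2 to 14 in the others, a gap of 3.53-fold. At a 2-fold cut the pool had 5 genes above all other libraries and control replicate 3 had 9. The number of such genes therefore did not single out the pool at that cut. The pool was chosen after its hsp70 counts were seen.

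The other members and the partners of the HSP70 system did not stand apart in the same pool by a wide gap, though some ranked at or near the top. In replicate 2 of BPA 0.1 mg/L, hspa8 was at 5462 CPM, rank 3 from the top of the 12 libraries, and the J protein gene dnajb1b was at 8.08 CPM, rank 6. The level of hsp90aa1.1 was 47.1 CPM and that of hsp90aa1.2 was 24.0 CPM, both rank 4. The small heat shock genes hspb1 and hspb11 were at 14.7 and 20.9 CPM, ranks 5 and 10, and serpinh1b at 10.9 CPM had rank 11. The gene of the heat shock factor itself, hsf1, was at 21.2 CPM there, rank 2, against 18.2 to 22.7 CPM over the other libraries. The cochaperone gene bag3, whose protein is a nucleotide exchange factor of HSP70, was at 8.95 CPM, rank 2, against 5.65 to 9.18 CPM. The HSP110 gene hsph1, whose protein recharges HSP70 with nucleotide, was at 1.68 CPM, rank 8, against 1.25 to 2.96 CPM. The constitutive hsp90ab1 was at 3560 CPM, the highest of the 12 libraries by 1.05-fold.

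**Figure D3:**
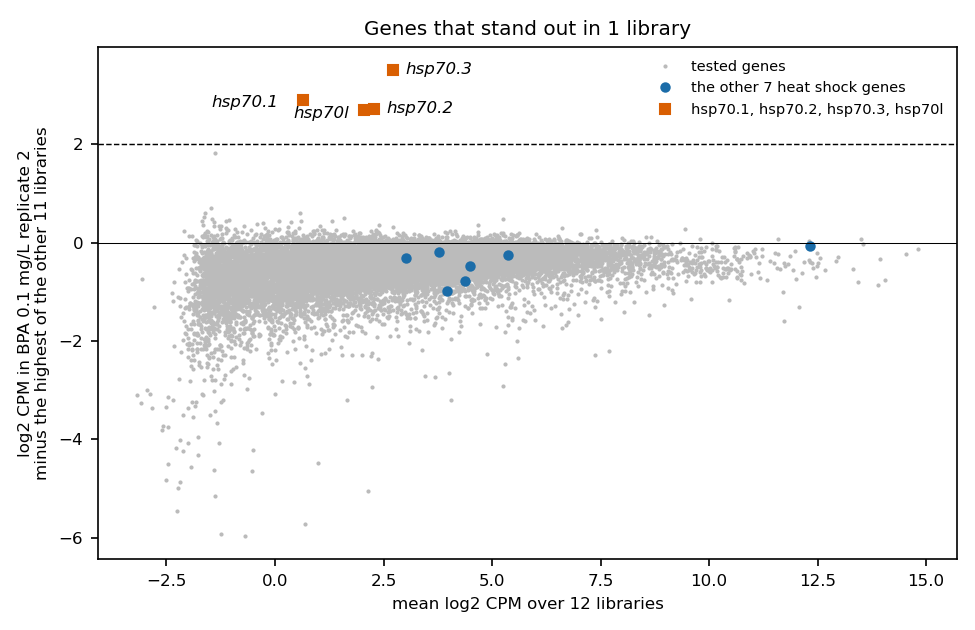
For every tested gene, log2 CPM in replicate 2 of BPA 0.1 mg/L minus log2 CPM in the highest of the other 11 libraries (y axis) against mean log2 CPM over the 12 libraries (x axis); grey points are all genes, squares the 4 inducible HSP70 genes, blue circles the other 7 heat shock genes described, and the dashed line a 4-fold gap. The 4 squares lie above the line and no other gene does.

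Group comparisons of the inducible genes followed that 1 library. At BPA 0.1 mg/L against control the log2 fold change of hsp70.3 was 3.13 (SE 0.850, 95% interval 1.29 to 4.98, n = 3 libraries a group, edgeR adjusted p = 0.825). For hsp70.2 it was 2.34 (SE 0.871, adjusted p = 0.95), and for hsp70l 1.94 (SE 0.727, adjusted p = 0.95). Without replicate 2 of BPA 0.1 mg/L the log2 fold changes were 0.73 for hsp70.3, -0.05 for hsp70.2 and 0.15 for hsp70l, each with an adjusted p of 0.998. That library held 87.4% of the summed CPM of the 3 pools for hsp70.3, 87.3% for hsp70.2 and 80.6% for hsp70l. The log2 fold change of hsp70.1 was 2.60 with all libraries and 0.62 without that library.

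The spread among pools of 1 group differed widely between the genes. The standard deviation (SD) of log2 CPM within groups was 1.27 for hsp70.2, 1.16 for hsp70.3 and 1.07 for hsp70l, above at least 99.2% of all tested genes, whose median was 0.245. Without replicate 2 of BPA 0.1 mg/L, hsp70.2 and hsp70l still had SDs of 0.715 and 0.637, above 96.7% and 94.8% of genes, and hsp70.3 had 0.416, above 81.1%. Among the other members hsp90aa1.2 had an SD of 0.636, above 95.3% of genes. Intermediate SDs were 0.378 for serpinh1b, 0.306 for hsp90aa1.1, 0.217 for hspb11 and 0.209 for dnajb1b. The constitutive hspa8 had 0.126 and hspb1 had 0.0996, below most genes, and hsf1 had 0.0669, the lowest among hsf1 and the 10 members.

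At BPA 1 and 4 mg/L the inducible genes did not pass the test either. The log2 fold change of hsp70.3 was 0.55 at 1 mg/L (adjusted p = 0.874) and 0.78 at 4 mg/L (SE 0.833, 95% interval -1.03 to 2.58, adjusted p = 0.716). All 3 pools at 4 mg/L were above all 3 controls for hsp70.3. The width of that interval includes the spread at 0.1 mg/L, since all groups share 1 estimate: without replicate 2 of BPA 0.1 mg/L the adjusted p was 0.321 at a log2 fold change of 0.78, and with the control and 4 mg/L libraries alone it was 0.192. At 4 mg/L the log2 fold change was 0.50 for hsp70.2 (adjusted p = 0.83) and 0.12 for hsp70l (adjusted p = 0.958).

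**Figure D4:**
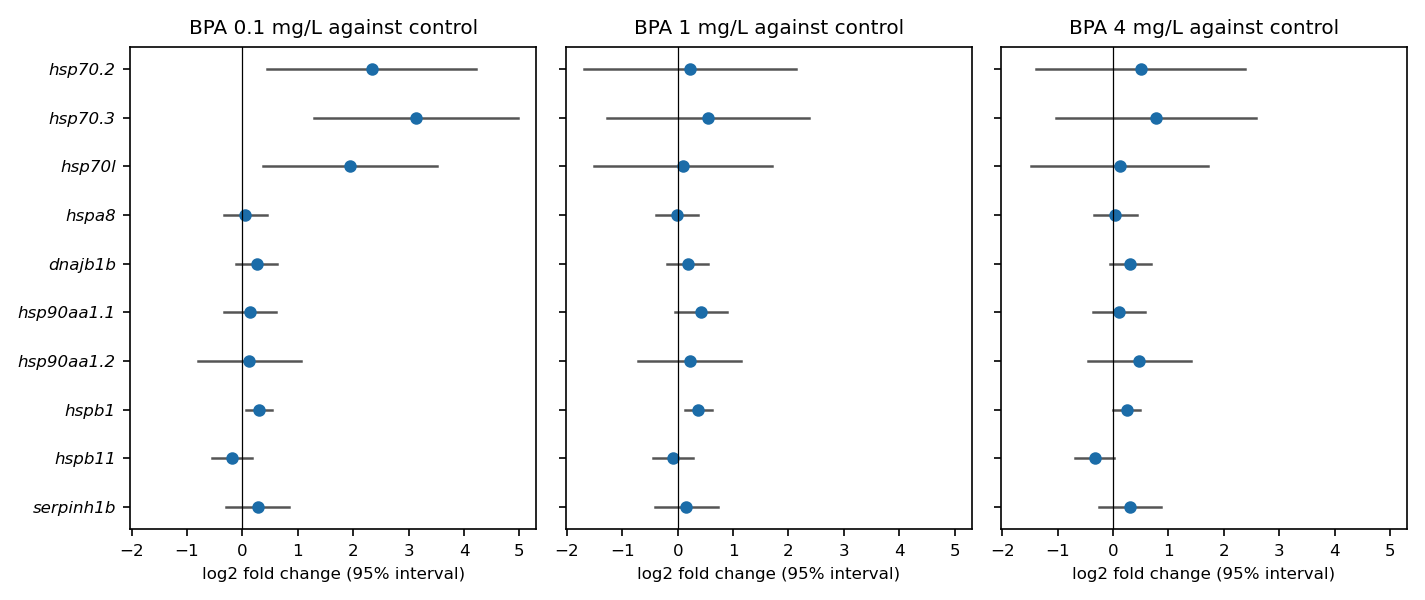
Log2 fold change with its 95% interval (x axis) of the 10 genes (y axis) at BPA 0.1, 1 and 4 mg/L against control, from edgeR's quasi-likelihood fit to all 12 libraries, without adjustment of the intervals over genes. The intervals of the 3 hsp70 genes are the widest at every dose, and those of hspb1 lie just above 0.

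The constitutive HSP70 gene, hspa8, was level. Its controls were at 5015, 5450 and 4728 CPM, and the pools at 0.1 mg/L at 5738, 5462 and 4534 CPM. At 1 mg/L they were at 5470, 4531 and 5071 CPM and at 4 mg/L at 5069, 5184 and 5399 CPM. The groups overlapped at every dose. At 4 mg/L against control the log2 fold change of hspa8 was 0.04 (SE 0.178, 95% interval -0.34 to 0.43, adjusted p = 0.935), which corresponds to an interval of 0.788-fold to 1.35-fold. The J protein gene dnajb1b was at 8.28, 6.42 and 6.74 CPM in controls, at 10.1, 8.08 and 7.59 CPM at 0.1 mg/L, at 9.41, 7.46 and 7.40 CPM at 1 mg/L and at 9.94, 7.33 and 9.38 CPM at 4 mg/L. Its group ranges overlapped at each dose, with a log2 fold change of 0.31 at 4 mg/L (SE 0.170, adjusted p = 0.477).

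The small heat shock gene hspb1 was the member whose exposed and control libraries separated at all doses. Its controls were at 11, 12.1 and 12.2 CPM (11.8 ± 0.672, mean ± SD, n = 3). At BPA 0.1 mg/L it was at 14.8, 14.7 and 13.9 CPM (14.5 ± 0.452). At 1 mg/L it was at 13.9, 16.8 and 15.0 CPM (15.2 ± 1.48), and at 4 mg/L at 13.9, 15.0 and 12.9 CPM (13.9 ± 1.04). All 9 exposed libraries were above all 3 controls, a placing shared by 392 of the tested genes, 1.75%. The log2 fold changes were 0.30 at 0.1 mg/L (SE 0.112, adjusted p = 0.95), 0.37 at 1 mg/L (SE 0.112, adjusted p = 0.29) and 0.24 at 4 mg/L (SE 0.112, adjusted p = 0.399). The level was highest at the middle dose, and the doses overlapped each other.

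The other small heat shock gene, hspb11, went the other way, with log2 fold changes of -0.19 at 0.1 mg/L and -0.08 at 1 mg/L. It was at 23.9, 23.1 and 29.0 CPM in controls, at 21.5, 20.9 and 24.1 CPM at 0.1 mg/L and at 26.1, 18.6 and 27.1 CPM at 1 mg/L. At 4 mg/L it was at 21.5, 22.4 and 16.4 CPM, so that all 3 pools lay below all 3 controls, as for 8.91% of tested genes. The log2 fold change at 4 mg/L was -0.33 (SE 0.164, adjusted p = 0.441), and it did not pass the test. The summed CPM of skeletal muscle markers was 74591 to 97608 at 4 mg/L and 94938 to 160402 in controls. Of the 40 muscle markers listed, 38 were in the tables and 0 of them were at 0 counts. The part of muscle content in the level of hspb11 was not tested.

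Over the 10 genes, 2 at 0.1 mg/L (hsp70.3 and hspb1), 1 at 1 mg/L (hspb1) and 2 at 4 mg/L (hsp70.3 and hspb1) had all exposed pools above all controls. Among all tested genes this held for 5.09%, 8.05% and 8.23% at the 3 doses. The gene hspb11 at 4 mg/L was the 1 member with all pools below the controls, as were 8.91% of tested genes. The members' log2 fold change had a median of 0.27 at 0.1 mg/L, 0.20 at 1 mg/L and 0.28 at 4 mg/L, and 9, 8 and 9 of the 10 were above 0. Single libraries moved these medians: to 0.08 without replicate 2 of BPA 0.1 mg/L and 0.17 without its replicate 1, to 0.13 without replicate 1 of BPA 4 mg/L and 0.18 without its replicate 2. At 1 mg/L the median was 0.07 without control replicate 3, 0.13 without control replicate 2, 0.09 without replicate 1 of BPA 1 mg/L, 0.36 without control replicate 1 and 0.42 without replicate 3 of BPA 1 mg/L. Medians over all tested genes were -0.01, -0.01 and -0.00286. The 3 comparisons share their control libraries. Called members numbered 0 of 10 in each. Among all tested genes, 0 were called at 0.1 mg/L (0%; 1123 at an unadjusted p below 0.05, and 32 called in DESeq2), 15 at 1 mg/L (0.067%) and 63 at 4 mg/L (0.281%). With 1 library left out, the count at 1 mg/L ran from 0 without control replicate 2 to 11 without replicate 3 of BPA 1 mg/L, and the count at 4 mg/L from 14 to 106 without the same libraries. At an unadjusted p below 0.05, 4, 1 and 1 of the 10 members passed in edgeR, as did 5.01%, 8.77% and 12.4% of all tested genes. At 0.1 mg/L these were hsp70.2, hsp70.3, hsp70l and hspb1, and the fold changes of the hsp70 genes followed replicate 2 of that dose. At 1 and 4 mg/L it was hspb1. In DESeq2, 3, 1 and 1 of 9 members passed that cut, and in limma-voom 2, 1 and 0 of 10. The adjusted calls of limma-voom were 0 of 10 and those of DESeq2 0 of 9. DESeq2 gave no p-value for hsp70.3 in any comparison of groups.

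Between doses, 0 of the 10 genes were called. In each of the comparisons of 1 against 0.1 mg/L, 4 against 1 mg/L and 4 against 0.1 mg/L, 2 genes of the whole table were called, 0.00893%. DESeq2, with 9 members tested, and limma-voom called 0 members too, and so did the fit with the replicate number as a block, in which 2, 15 and 32 genes of the whole table were called. At an unadjusted p below 0.05 in edgeR, 3, 0 and 3 members passed, and these were hsp70.2, hsp70.3 and hsp70l against 0.1 mg/L both times. Among all tested genes 1.95%, 4.72% and 6.68% passed that cut. The log2 fold change of hsp70.3 was -2.58 for 1 against 0.1 mg/L (adjusted p = 1) and -2.35 for 4 against 0.1 mg/L (adjusted p = 0.718). Without replicate 2 of BPA 0.1 mg/L these values were -0.18 and 0.05.

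The adjacent genes hsp90aa1.1 and hsp90aa1.2 were read by replicate number. The gene hsp90aa1.2 was at 31.9, 13.9 and 11.3 CPM in control replicates 1, 2 and 3. It was at 22.6, 24.0 and 15.9 CPM at 0.1 mg/L, at 32.3, 21.4 and 12.6 CPM at 1 mg/L and at 41.1, 21.7 and 17.0 CPM at 4 mg/L. The library numbered 3 was the lowest of its group in 4 of 4 groups. Its neighbour hsp90aa1.1, which in zebrafish is needed for myosin folding in skeletal muscle, was at 36.3, 44.7 and 30.2 CPM in controls and at 44.3, 47.1 and 30.4 CPM at 0.1 mg/L. At 1 mg/L it was at 48.6, 56.1 and 44.4 CPM and at 4 mg/L at 38.3, 51.7 and 30.2 CPM. Again number 3 was the lowest in 4 of 4 groups, and number 2 was the highest in each. The 2 genes are adjacent in the RefSeq table, and their summed level ranged from 41.5 to 80.9 CPM. In replicates 1, 2 and 3 the sum was 68.2, 58.7 and 41.5 CPM in controls and 66.9, 71.1 and 46.3 CPM at 0.1 mg/L. It was 80.9, 77.5 and 57.0 CPM at 1 mg/L and 79.4, 73.4 and 47.1 CPM at 4 mg/L. The sum too was lowest in number 3 in each group. How reads were split between the 2 genes was not checked, so their separate levels are less certain than the sum. Against control the largest log2 fold change of hsp90aa1.1 was 0.42, at 1 mg/L (SE 0.217, edgeR adjusted p = 0.622). That of hsp90aa1.2 was 0.47, at 4 mg/L (SE 0.428, edgeR adjusted p = 0.662). Both tests left the replicate number out of the model. For hsp90aa1.1 at 1 mg/L the adjusted p ran from 0.0614 to 0.692 over 8 alternative fits in edgeR, DESeq2 or limma-voom, the replicate block included.

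With the dose group held in the model, hsp90aa1.2 was 2.27-fold lower in number 3 than in number 1 (log2 fold change -1.18, SE 0.173, edgeR adjusted p = 0.00175). It stayed called in 12 of 12 fits that each left out 1 library. Summed CPM of the skeletal muscle markers was the highest of its group in number 3 in 4 of 4 groups, at 97608 to 160402 against 74591 to 107118 in number 1. The TMM factor was the lowest of its group in number 3 in 4 of 4 groups, at 0.892 to 1.00 against 1.02 to 1.11 in number 1. The part of either in these changes was not tested. For hsp90aa1.1 the log2 fold change was -0.32 (SE 0.0873, adjusted p = 0.028), and it stayed called in 5 of 12 such fits, with the highest adjusted p, 0.101, without replicate 1 of BPA 0.1 mg/L. The J protein gene dnajb1b was lower in number 3 than in number 1 in 4 of 4 groups, with a log2 fold change of -0.28 that missed the threshold (SE 0.0951, adjusted p = 0.0641). Called members were 2 of 10, both lower. Of all tested genes, 4258 (19%) were called in this comparison and 1994 (8.9%) were called lower, so calls were common in this comparison.

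For number 2 against number 1, edgeR called 0 of 10 members and 21 of all tested genes (0.0938%). At an unadjusted p below 0.05, 4 of 10 members passed in edgeR, as did 16.5% of all tested genes. DESeq2 called 1 member, hsp90aa1.2, with a log2 fold change of -0.66 (adjusted p = 0.0144), where edgeR gave -0.67 with an adjusted p of 0.112. Calls were more common in DESeq2, which called 589 of all tested genes in this comparison, against 21 in edgeR. For dnajb1b the log2 fold change was -0.36 (edgeR adjusted p = 0.117), and for hsp90aa1.1 it was 0.26 (adjusted p = 0.187). The labels do not say what the numbers stand for, and no label gives a date.

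**Figure D5:**
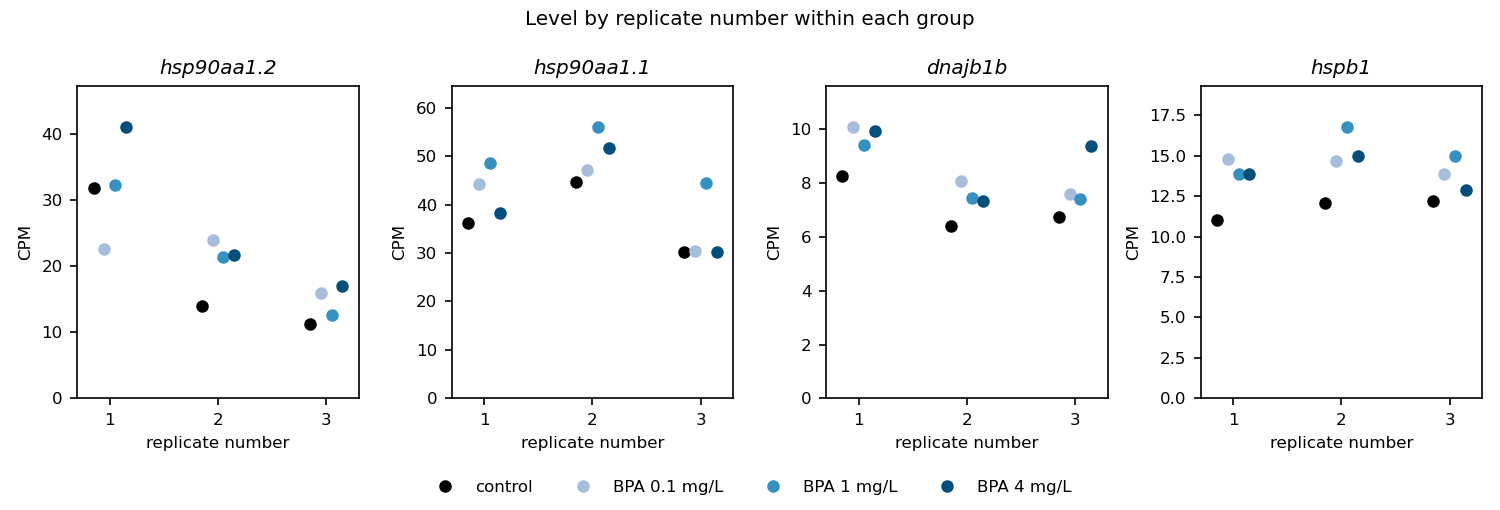
Level in CPM (y axis, from 0) of hsp90aa1.2, hsp90aa1.1, dnajb1b and hspb1 by replicate number (x axis), with 1 point per library coloured by group. In every group the library numbered 3 is the lowest for hsp90aa1.2 and hsp90aa1.1, whereas the hspb1 points separate by control and exposed and not by number.

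The collagen chaperone gene serpinh1b was at 10.6, 14.1 and 17.3 CPM in controls and at 18.4, 10.9 and 21.5 CPM at 0.1 mg/L. It was at 15.1, 13.0 and 18.5 CPM at 1 mg/L and at 21.3, 13.0 and 17.4 CPM at 4 mg/L. The groups overlapped, and the log2 fold change at 4 mg/L was 0.31 (SE 0.260, adjusted p = 0.638). The 16 tested genes of collagen maturation and the 12 tested fibrillar collagen genes had 0 calls at each dose, with medians of 0.25 and 0.11 on the log2 scale at 4 mg/L against control. Summed CPM of cartilage, bone and fibroblast markers was 1756 to 2116 in controls and 1945 to 3302 at 4 mg/L.

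A further 125 gene symbols of the heat shock pathway and its partners were listed. The tested genes with these symbols numbered 109, and edgeR without the replicate block called 0 of them at any dose. That fit called 0%, 0.067% and 0.281% of all tested genes at 0.1, 1 and 4 mg/L. With the replicate number as a block, edgeR called 0, 0 and 7 of the 109 at these doses. At 4 mg/L the block fit called 1094 of all tested genes. Among the 7 were hspd1 (adjusted p = 0.00519) and hspa4a (adjusted p = 0.00639). The adjusted p-values below come from edgeR without the block. The 12 symbols of mitochondrial chaperones matched 13 of the 109 genes. At an unadjusted p below 0.05, 2, 9 and 19 of the 109 passed in edgeR without the block at 0.1, 1 and 4 mg/L. Among all tested genes 5.01%, 8.77% and 12.4% did. DESeq2 called 0, 0 and 2 of the 109 after adjustment, and 32, 278 and 487 of all 22399 tested genes. The heat shock factor gene hsf1 had a log2 fold change of -0.07 at 4 mg/L (SE 0.0968, adjusted p = 0.778), and the constitutive hsp90ab1 had 0.02 (SE 0.173, adjusted p = 0.973). The mitochondrial chaperonin gene hspd1 was at 78.6, 76.4 and 49.9 CPM in controls and at 145, 119 and 80.2 CPM at 4 mg/L, where all 3 pools lay above all controls, as for 8.23% of all tested genes (log2 fold change 0.75, adjusted p = 0.329). The HSP110 gene hspa4a had a log2 fold change of 0.81 at 4 mg/L (adjusted p = 0.395). Of the myosin chaperone partners, smyd1b, which encodes a muscle methyltransferase that binds Hsp90, had -0.54 at 4 mg/L (adjusted p = 0.205). Its partner unc45b, which encodes a myosin cochaperone, had 0.54 at 1 mg/L (adjusted p = 0.538), with all 3 pools above all controls, as for 8.05% of tested genes. The hsph1 gene had a log2 fold change of -0.84 at 1 mg/L (adjusted p = 0.336), with all 3 pools below all controls. For hsf1 the pools at 1 mg/L were at 18.8, 19.4 and 18.2 CPM, likewise below the controls at 22.7, 20.1 and 20.6 CPM, a placing shared by 6.08% of tested genes.

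Across the wider list of chaperones, cochaperones and collagen partners, 27 of the 109 genes were called lower in number 3 than in number 1 (24.8%) and 7 higher (6.42%), against 8.9% called lower and 10.1% called higher among all tested genes. Lower genes included hspa4a (log2 fold change -1.07, adjusted p = 0.000521), hspd1 (-0.78), dnaja1, a J protein gene (-0.71), and stip1, which encodes the adaptor that hands clients from HSP70 to HSP90 (-0.43). The myosin chaperone gene unc45a was at -0.57, and the collagen genes col1a1a and col5a1 at -0.75 and -0.46. Lower calls also covered 5 genes of collagen maturation and 5 fibrillar collagen genes, the 2 just named among the latter. Higher genes included hsf2, a heat shock factor gene, and hsbp1b, which encodes a heat shock factor binding protein, both with a log2 fold change of 0.44. The chaperone genes hsc70 (0.75), hspb15 (0.68), dnaja3a (0.41) and dnaja3b (0.32) were called higher too. Of the 3 called genes among the 5 tested heat shock factor and binding protein genes, all were higher.

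Genes most like each member over the 12 libraries were listed by Pearson's r of log2 CPM, as a description over libraries that share their sequencing depth and pools. A closest gene has the highest r of all tested genes outside the members, so its r is high in part through that choice. The gene most like hsp70.2, hsp70.3 and hsp70l was in each case hsp70.1, with r of 0.94, 0.955 and 0.954. Without replicate 2 of BPA 0.1 mg/L these were 0.763, 0.812 and 0.811. Spearman's rank correlations with hsp70.1 over the 12 libraries were 0.671, 0.804 and 0.867. The split of counts between these close copies is uncertain, which limits what the correlations show. For hsp90aa1.1 the closest was fgfrl1b (r = 0.945) and for hsp90aa1.2 it was CU856539.3 (r = 0.955). The closest gene to hspb11 was ddit4 (r = 0.867), and to serpinh1b it was snrpd2 (r = 0.937). Among the members themselves, hsp70.2 and hsp70l had r of 0.951, and of 0.802 without replicate 2 of BPA 0.1 mg/L. Over the 12 libraries hsp90aa1.2 and dnajb1b had 0.698, and hsp90aa1.1 and hsp90aa1.2, which lie side by side, had 0.292.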

How the data were processed

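Whole-larva messenger RNA was sequenced in 12 libraries, 4 groups of 3. The submitters' processing notes name CASAVA, STAR 2.5.1b, RSEM 1.2.28, DESeq2 1.10.1 and the genome build GRCz10, with no role for each; the library kit keeps strand, per the labels' protocols. Each library has 1 deposited table of gene counts, all whole numbers, which entered the tests unchanged. If they are rounded RSEM estimates, reads shared by near-identical genes were divided between them. Genes were filtered with edgeR's filterByExpr (minimum count 10, minimum total 15), scaled by TMM and fitted with glmQLFit and glmQLFTest by group (edgeR 4.0.16, R 4.3.3), two-sided, at an adjusted p of 0.05. Replicate numbers were compared in a model with group and number. Alternatives were DESeq2 1.42.0, limma-voom (limma 3.58.1), other scalings and filters, 2 groups alone, a replicate block and leaving out each library. The code was tested on simulated data. Libraries of 1 group differed by far more than counting error (ratio of chi-square to its degrees of freedom 26.2 to 75), so none was treated as a duplicate.

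The members and gene lists were chosen with earlier results of these data known. All 10 members are named; other genes are called genes of the fixed lists, at most 4 a list, with hsf1, hsp70.1, hsp90ab1, hsph1, bag3, unc45b, smyd1b and stip1, and the 3 genes most like each member. The values of hspa4a and hspd1 beside an uncalled dose comparison were chosen after their values were seen. A planned motif count in promoters was not run, since no promoter sequence was used here. Same-numbered libraries deviated together between doses (correlations of 0.23 to 0.51), so the numbers pair these libraries; the block changed no member's call there.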

Additional observations from a re-analysis of the deposited data

How the results depend on the processing

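The count of called members was 0 in all 6 comparisons of groups under every alternative run (hsp70.3 had no p-value in DESeq2), the replicate block included, which called 0 of 10 members in each. At an unadjusted p below 0.05, 5, 2 and 3 members passed with the block at 0.1, 1 and 4 mg/L against control, and 4, 1 and 1 without it. Of the other 109 pathway genes, 9, 26 and 36 passed with the block, and 2, 9 and 19 without it. The share of all tested genes at this unadjusted cut with the block is not given here. The counts with the block thus have no background beside them, and the block also raised the calls over all genes, from 63 to 1094 at 4 mg/L. For number 2 against 1, DESeq2 called 1 member (0 in edgeR), and for number 3 against 1 leaving out 1 library gave 1 to 2. That call of hsp90aa1.1 was lost without replicate 1 or 3 of control or of BPA 0.1 mg/L, without replicate 1 of BPA 1 mg/L and without replicate 1 or 3 of BPA 4 mg/L, where dnajb1b was called without replicate 3 (adjusted p = 0.0236). Of 810 alternative values for 42 single-gene results, 6 from DESeq2 had no adjusted p, and 782 of the other 804 kept direction and side of the threshold. Leaving out 1 library changed the sign of the log2 fold change in 6 of the 42 single-gene results. The ranges were -0.054 to 2.83 for hsp70.2 at 0.1 mg/L, and -2.85 to 0.052 for hsp70.3 at 4 against 0.1 mg/L. At 4 mg/L against control they were -0.064 to 0.41 for hsp70l, -0.11 to 0.29 for hsp90aa1.1, -0.0011 to 0.10 for hspa8 and -0.030 to 0.11 for hsp90ab1. Against control the correlations of same-numbered deviations ran from 0.0023 to 0.45 at 0.1 mg/L, -0.24 to 0.4 at 1 mg/L and -0.095 to 0.38 at 4 mg/L. The lowest was that of number 2 at each dose. Numbers 1 and 3 deviated together there too, at 0.21 and 0.45, 0.25 and 0.4, and 0.38 and 0.29. The tests against control without the block do not use this pairing. No member was called against control under any alternative, yet adjusted p-values moved. At 1 mg/L they ran from 0.0614 to 0.692 for hsp90aa1.1 over the 8 alternatives other than leaving out a library. For hspb1 they ran from 0.0819 to 0.41, and the main edgeR fit gave 0.622 and 0.29 for the 2 genes. The block raised the calls among the other 109 pathway genes from 0 to 7 at 4 mg/L, hspd1 (0.74, adjusted p = 0.00519) and hspa4a (0.79, adjusted p = 0.00639) among them, and those over all genes from 63 to 1094 (487 in DESeq2), from 15 to 299 at 1 mg/L (278 in DESeq2) and from 0 to 2 at 0.1 mg/L. Over all genes DESeq2 called 47 for 4 against 1 mg/L and 60 for 4 against 0.1 mg/L (2 each in edgeR), and 589 for number 2 against 1 (21 in edgeR). With 1 library left out, edgeR's count for number 2 against 1 ran from 0 to 637 and that for number 3 against 1 from 2491 to 4972. The members' median for number 2 against 1 moved from 0.04 to -0.14 without replicate 2 of BPA 0.1 mg/L. The lowest count of a member, 26, limits the precision for hsp70l.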
